A study of Mus musculus with 20 samples.

Results

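The interleukin receptor genes described here are *Il2rg*, *Il7r*, *Il4ra*, *Il13ra1*, *Il21r*, *Il6ra*, *Il10ra*, *Il10rb* and *Il17ra*. They were taken by symbol, and all 9 were found among the 16810 genes of the table. Every one was detected in every library, with between 53 and 10023 reads per library.

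Interleukin receptors are built from subunits, so that the response of a cell to a cytokine depends on which chains it makes together. *Il2rg* encodes the common gamma chain, which has no high affinity for a cytokine by itself and completes receptors that also contain a specific chain, such as those encoded by *Il7r*, *Il4ra* and *Il21r*. The chains lack enzyme activity. Apart from *Il17ra*, whose receptors act through adaptor proteins, they belong to receptors that signal through attached JAK kinases and the STAT transcription factors. Microglia, the resident macrophages of the central nervous system, are known to respond to several of these cytokines, including interleukin 10, which restrains their inflammatory activity, and interleukin 4, which is associated with repair.

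Transcripts of sorted microglia were measured by RNA-Seq of polyadenylated RNA in 20 libraries of 7 groups. The control group was non-injured (NI, n = 3). The injuries were made in the thoracic cord, either as a lateral hemisection (HS), a cut through one side (n = 3 at 72 h, n = 2 at 1 week, n = 3 at 2 weeks), or as a full transection (FT), a cut through the whole cord (n = 3 each time). All mice, NI included, were adult males of the genotype CX3CR1+/eGFP, in which 1 copy of *Cx3cr1* is replaced by eGFP. The cells came from a short segment centred on the lesion, or from a matching thoracic segment in NI mice. *Cx3cr1* is also active in monocytes and other macrophages, so eGFP alone does not separate these cells from microglia. The paper sorted cells with high eGFP. In its parallel experiment with NI and HS mice such cells lacked LY6C, a marker that partly separates microglia from related cells. It took most of the sorted cells to be microglia, and could not exclude infiltrating macrophages. The study drew RNA from more mice than there are libraries, and the labels do not say which mice a library holds. The p-values below therefore measure the spread between libraries. Bulk RNA cannot tell fewer cells of a type from less RNA per cell.

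The values are in CPM, the reads of a gene divided by the library size as adjusted by edgeR and scaled to mega reads. The depth was 3.87 to 34.1 mega reads per library (median 10.1 mega reads), which makes 1 read worth 0.0330 to 0.292 CPM. These limits cover counting error alone. FT 1 week replicate 1 stood apart from its group. Over 9871 genes its median absolute log2 difference from the other replicates was 0.470, against 0.322 and 0.325 for those, and the changes at 1 week that move with it are given with and without it. The deposited scaling also matters. When every library was instead set to 1 total, the median gene of the table moved from -0.11 to -0.52 (log2) at 72 h after HS, and from -0.09 to -0.48 after FT.

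The sorted cells carried the microglial markers in every library, with a summed level of 10 homeostatic genes of 17025 to 25717 CPM in NI and 11463 to 26415 CPM after injury. Their median log2 fold change against NI was -0.54 to -0.26. Of the 10 genes, 2 were DE lower at FT 2 weeks and 1 in each other comparison with NI. Markers of monocytes and macrophages (10 genes) summed to 82.1 to 92.6 CPM in NI and to 582 to 1253 CPM at 72 h, and were still at 320 to 553 CPM at 1 and 2 weeks. Of these 10 genes, 3 were DE higher at HS 72 h, 6 at FT 72 h and 2 at each later time. Among them *Fn1* went from a mean of 12.9 CPM in NI to 546 and 597 CPM at 72 h after HS and FT, and *Ccr2* from 17.99 to 72.0 and 97.1 CPM. Lymphocyte markers are given because T, NK and B cells also express *Il2rg*, and some lymphocytes express *Il7r*. The 9 T cell markers summed to 9.53 to 11.7 CPM in NI and 9.23 to 18.8 CPM after injury, and the 8 NK cell markers to 5.96 to 7.96 and 6.67 to 17.5 CPM. The T cell sum was 9.23 to 11.4 CPM at HS 72 h and 12.4 to 14.4 CPM at FT 72 h. At 1 week it was 16.1 to 16.7 and 14.2 to 17.8 CPM, and at 2 weeks 12.8 to 16.4 and 15.9 to 18.8 CPM. Against NI, 1 T cell marker was DE higher at HS 2 weeks, FT 1 week and FT 2 weeks, and 2 NK cell markers at FT 72 h alone. *Cd3e*, a defining marker of T cells, had mean levels of 0.279 to 1.48 CPM over the 7 groups. *Cd22*, a B cell marker, rose in all 6 comparisons with NI, from 15.1 to between 39.1 and 99.8 CPM, while the other 6 genes of the B cell list were not DE in any of them. That list summed to 294 to 308 CPM in NI and 310 to 485 CPM after injury. The 15 markers of astrocytes, oligodendrocytes, neurons and endothelium summed to 1280 to 2542 CPM in NI and 446 to 2467 CPM after injury. Of these, 2 to 4 were DE lower and at most 2 DE higher in each comparison with NI. None of the listed markers was at 0 in all libraries of a group. The part of other cell types in the changes below was not tested.

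*Il2rg* lies on chromosome X, at 101264378 to 101268255 of GRCm38 on the minus strand, with 6 merged exons, and *Il6ra* on chromosome 3, at 89864059 to 89913196 on the minus strand, with 10. They are the members with the largest rise and, at HS 72 h, the largest fall, so the 250 bases upstream of their RefSeq start sites (GRCm38.p6, printed 5′ to 3′ along the gene's own strand) are shown for orientation. The window of *Il2rg* is chrX:101268256-101268505 and that of *Il6ra* is chr3:89913197-89913446, which lies within the span of the antisense gene *Gm42809*.
Il2rg: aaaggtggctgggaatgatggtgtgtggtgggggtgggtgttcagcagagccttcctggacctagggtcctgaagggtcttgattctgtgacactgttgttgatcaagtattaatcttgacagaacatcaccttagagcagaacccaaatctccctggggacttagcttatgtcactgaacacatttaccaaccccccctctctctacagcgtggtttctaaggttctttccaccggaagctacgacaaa
Il6ra: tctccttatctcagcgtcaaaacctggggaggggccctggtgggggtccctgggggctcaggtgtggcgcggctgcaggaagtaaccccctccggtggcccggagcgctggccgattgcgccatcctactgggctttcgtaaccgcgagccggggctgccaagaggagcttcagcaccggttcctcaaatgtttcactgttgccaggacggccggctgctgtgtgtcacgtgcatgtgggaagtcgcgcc
The *Il6ra* window had 65.2% G and C and the *Il2rg* window 49.2%. RefSeq start sites were matched for 6 of the 9 genes, and 5 motifs were searched on both strands of these windows. The STAT motif TTCNNNGAA was in 7.18% of 27025 promoters and in 1 of the 6, *Il7r*, as TTCAGGGAA from 142 to 134 bases upstream. The motifs of PU.1 (GAGGAAGT, 2.44% of promoters), AP-1 (TGANTCA, 6.87%), the interferon response element ISRE (3.04%) and ETS factors (CCGGAAGT, 2.93%) had no match in the 6. A match is a stretch of letters and says nothing of binding.

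A gene was called differentially expressed (DE) where limma gave a Benjamini-Hochberg adjusted p under 0.05 over all 16810 genes and the change was at least 2-fold. At 72 h, 3 of the 9 receptors passed after HS, against 13.4% of all genes, and 3 after FT, against 12.2%. At 1 week 3 passed after HS (2.18% of all genes) and 2 after FT (4.05%). At 2 weeks 2 passed after HS (3.23%) and 2 after FT (4.88%). In each comparison 1 member was higher. The share of all genes that were higher was 9.08%, 1.70% and 2.43% at the 3 times after HS and 8.14%, 2.86% and 3.53% after FT. The lower members numbered 2, 2 and 1 after HS, where 4.31%, 0.482% and 0.797% of all genes were lower, and 2, 1 and 1 after FT, where 4.09%, 1.20% and 1.36% were. Without the fold limit 5, 3 and 3 members passed after HS, against 27.3%, 2.68% and 4.99% of all genes, and 5, 3 and 2 after FT, against 24.2%, 7.03% and 8.17%. The higher gene was *Il2rg* each time, and the lower ones were *Il7r* in all 6 comparisons and *Il6ra* in 3. The median log2 fold change of the 9 members was -0.13, -0.14 and -0.08 at the 3 times after HS, where that of all genes was -0.11, 0.02 and -0.01. After FT it was -0.12, -0.25 and -0.09, against -0.09, -0.03 and -0.02. All 6 comparisons share the NI libraries, so they are not separate evidence.

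**Figure D1:**
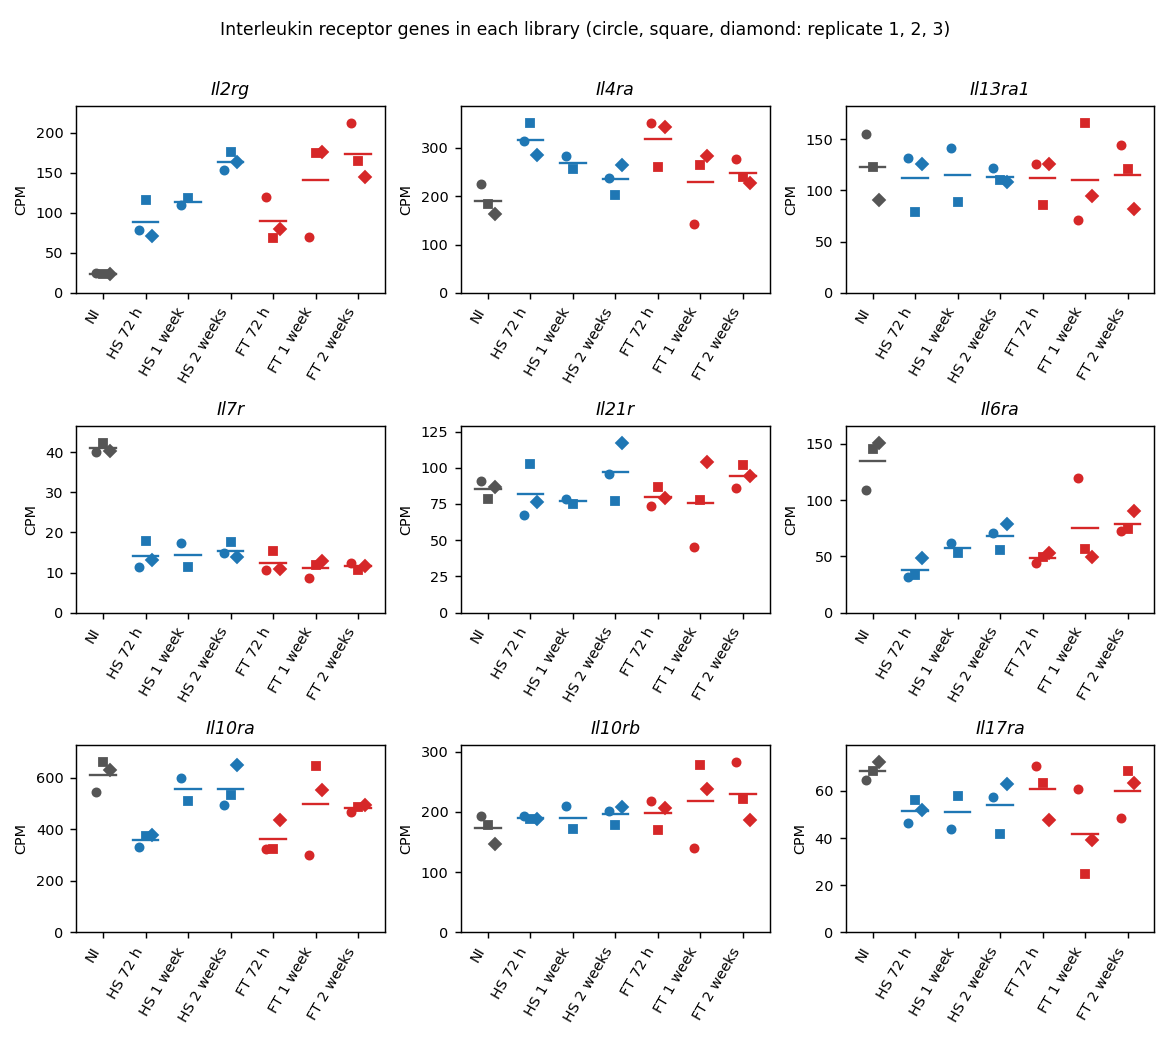
Each panel plots 1 receptor gene, with the level in CPM on the vertical axis (from 0) and the 7 groups along the horizontal axis. A symbol is a library (circle, square and diamond for replicate 1, 2 and 3) and a bar is the group mean. *Il2rg* stands above NI and *Il7r* below NI in every injured library, while *Il13ra1*, *Il21r* and *Il10rb* overlap NI in every group.

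*Il2rg*, the common gamma chain, was the only member that was DE higher than NI. NI libraries had 25.1, 23.3 and 23.2 CPM, and the lowest injured library had 68.6 CPM, so no injured group overlapped NI. At 72 h the libraries had 78.2, 115.5 and 70.7 CPM after HS and 119.6, 68.6 and 80.0 CPM after FT. At 2 weeks they had 153.1, 175.5 and 163.0 CPM after HS and 212.4, 164.8 and 144.5 CPM after FT, all above every library of 72 h. The 2 libraries of HS 1 week, at 110.2 and 117.8 CPM, lay below every library of 2 weeks but within the 72 h range of 68.6 to 119.6 CPM. FT 1 week had 174.9 and 176.3 CPM in replicates 2 and 3 but 69.7 CPM in replicate 1. The group mean rose from 23.9 ± 1.09 CPM (SD, n = 3) in NI to 88.1 ± 24.0 CPM (SD, n = 3) at HS 72 h and 164 ± 11.2 CPM (SD, n = 3) at HS 2 weeks. In limma the log2 fold change was 1.83 at HS 72 h (SE 0.28, adjusted p = 5.12e-05) and 1.84 at FT 72 h (SE 0.28, adjusted p = 5.22e-05). It was 2.23 at HS 1 week (adjusted p = 0.000134 by limma), 2.75 at HS 2 weeks (8.24e-07) and 2.82 at FT 2 weeks (4.25e-07), the last a 7.06-fold difference. At FT 1 week it was 2.41 (SE 0.28, limma adjusted p = 5.57e-06), and 2.85 (3.87e-08) without replicate 1. Its exons overlap *Gm20489*, a predicted gene on the same strand that is not in the table.

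*Il7r* encodes the alpha chain of the interleukin 7 receptor, which pairs with the common gamma chain and is also part of the receptor for thymic stromal lymphopoietin. Its level moved the other way. NI libraries had 40.2, 42.5 and 40.3 CPM, and the highest injured library had 17.9 CPM, with no overlap in any group. The libraries had 11.5, 17.9 and 13.1 CPM at HS 72 h, 17.4 and 11.4 CPM at HS 1 week, and 14.8, 17.5 and 13.9 CPM at HS 2 weeks. After FT they had 10.6, 15.5 and 10.95 CPM at 72 h, 8.52, 11.99 and 12.9 CPM at 1 week, and 12.4, 10.7 and 11.6 CPM at 2 weeks. The fall was present at 72 h and the level differed little afterwards. The log2 fold change in limma was -1.52 at HS 72 h (SE 0.22, adjusted p = 2.39e-05), -1.50 at HS 1 week (SE 0.24, 0.000669) and -1.39 at HS 2 weeks (SE 0.22, 0.000272). After FT it was -1.71 (limma adjusted p = 6.61e-06), -1.86 (6.68e-06) and -1.78 (7.84e-06) at the same times, and without replicate 1 the FT 1 week value was -1.68 (3.57e-05). The HS 1 week call rests on 2 libraries, and without replicate 2 it was -1.21 with an adjusted p of 0.0543 in limma. The gene is on chromosome 15 (9505788 to 9530176, minus strand).

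*Il4ra* binds interleukin 4 and completes its receptor with either the common gamma chain or *Il13ra1*, and the latter pair also binds interleukin 13. *Il4ra* was higher than NI at 72 h, by less than 2-fold. NI libraries had 225, 185 and 163 CPM, against 314, 352 and 286 CPM at HS 72 h and 352, 261 and 344 CPM at FT 72 h, without overlap. The log2 fold change was 0.74 after HS (SE 0.22, limma adjusted p = 0.0154) and 0.74 after FT (SE 0.22, 0.0167). The adjusted p in limma was 0.0517 to 0.0803 for HS without NI replicate 2, NI replicate 3 or HS 72 h replicate 2, and 0.0563 to 0.0870 for FT without NI replicate 2 or 3 or FT 72 h replicate 1 or 3. Later values were nearer NI, at 0.51 (limma adjusted p = 0.395) and 0.31 (0.557) at HS 1 and 2 weeks and 0.22 (0.691) and 0.39 (0.360) at FT 1 and 2 weeks. Without FT 1 week replicate 1 the FT 1 week value was 0.53 (0.0514 in limma). With every library set to 1 total the 72 h values became 0.23 and 0.27, which no longer passed (limma adjusted p of 0.287 and 0.222), and with quantile normalization 0.22 and 0.31 (0.400 and 0.239). With 1 total per library those at HS 2 weeks, FT 1 week and FT 2 weeks turned slightly negative (-0.018, -0.13 and -0.0085).

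*Il13ra1* ranged from 71.2 to 166 CPM over the 20 libraries and overlapped NI in every group, with log2 fold changes of -0.21 to -0.08. Its lowest and highest values were both FT 1 week libraries. *Il21r*, the specific chain for interleukin 21 and a neighbour of *Il4ra* on chromosome 7, 23954 bases downstream on the same strand, ranged from 45.5 to 117 CPM. It too overlapped NI in every group, with changes of -0.25 to 0.16 and limma adjusted p of at least 0.653. The 95% interval of the HS 72 h change was -0.74 to 0.47 for *Il13ra1* and -0.56 to 0.40 for *Il21r*, so changes within these limits were not excluded. Without FT 1 week replicate 1 the changes at FT 1 week were 0.06 for *Il13ra1* and 0.08 for *Il21r*. With 1 total per library *Il21r* had negative changes in all 6 comparisons, where the deposited scaling gave positive ones at 2 weeks.

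**Figure D2:**
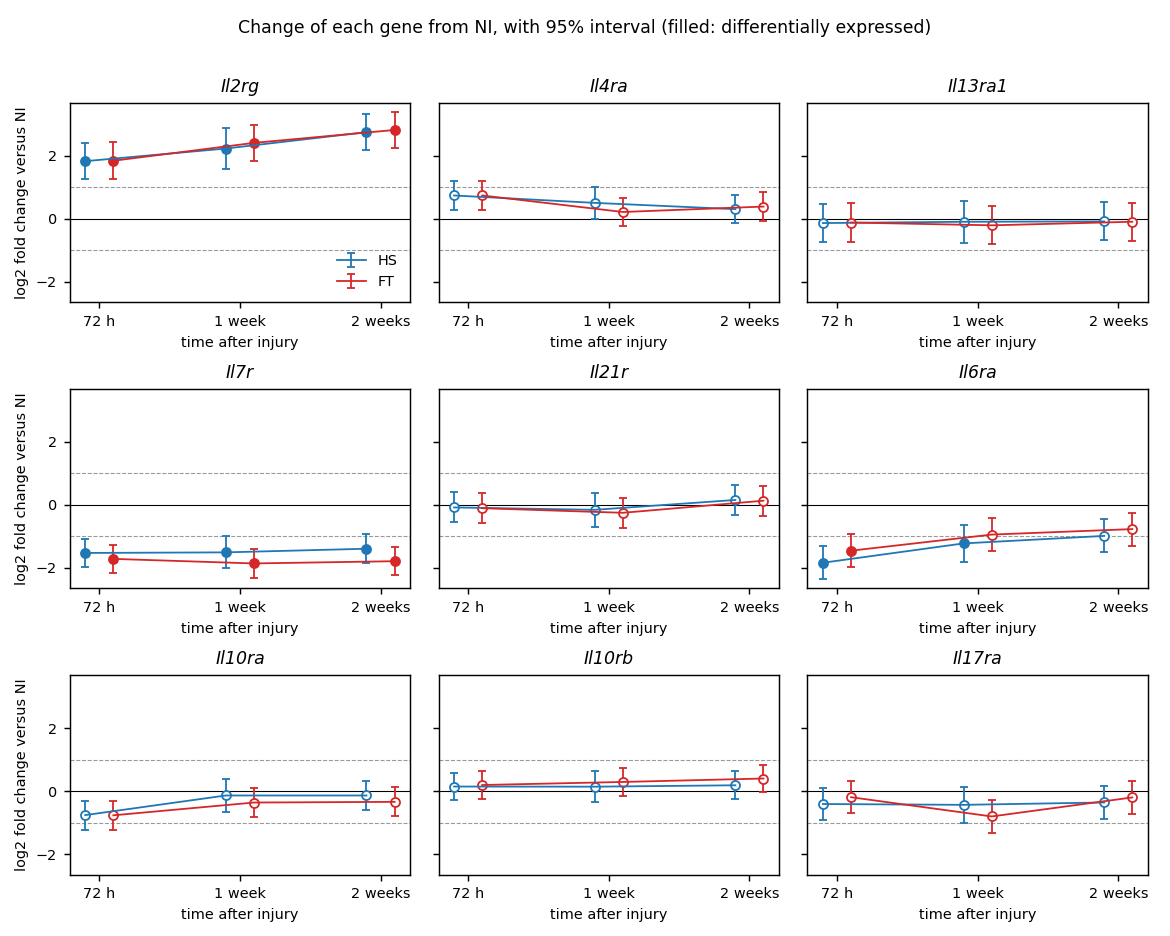
Each panel plots the log2 fold change of 1 receptor gene against NI (vertical axis) by time after injury (horizontal axis), for HS in blue and FT in red. Bars are 95% intervals from limma, filled symbols are DE calls and dashed lines mark 2-fold. *Il2rg* climbs from 1.83 to 2.75 after HS, *Il7r* stays between -1.39 and -1.86, and *Il6ra* moves back from -1.83 to -0.98 after HS.

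*Il6ra* encodes the chain that binds interleukin 6 and signals together with gp130, the product of *Il6st*. A released form of this chain can also act on cells that do not make it. NI libraries had 109, 146 and 151 CPM, and at 72 h the level had fallen to 31.2, 33.8 and 48.6 CPM after HS and 43.8, 49.7 and 52.9 CPM after FT. Later libraries lay between these ranges, with 61.5 and 53.0 CPM at HS 1 week, 70.3, 55.6 and 78.6 CPM at HS 2 weeks, and 72.4, 74.2 and 90.0 CPM at FT 2 weeks. None of these groups overlapped NI. The log2 fold change was -1.83 at HS 72 h (SE 0.25, limma adjusted p = 1.54e-05), the largest fall of any member at 72 h, and -1.45 at FT 72 h (SE 0.25, 0.000235). At HS 1 week it was -1.22 (SE 0.28, limma adjusted p = 0.0173). At HS 2 weeks it was -0.98 (limma adjusted p = 0.0235) and missed the 2-fold limit, and at FT 2 weeks it was -0.77 (0.0689) and missed both.

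FT 1 week was split for *Il6ra*. Replicate 1 had 119 CPM, inside the NI range, and replicates 2 and 3 had 56.6 and 49.7 CPM. The change was -0.94 (limma adjusted p = 0.0246) with all 3 libraries, under 2-fold, and -1.33 (0.000182) without replicate 1, which is DE. The HS 1 week call was lost when any of 4 libraries was left out (NI replicates 2 and 3, and either HS 1 week library), with changes of -1.33 to -1.11. With 1 total per library or quantile normalization *Il6ra* was DE in all 6 comparisons. *Il6st*, its signaling partner, had changes of -0.15 to 0.40 and passed no test (limma adjusted p of at least 0.402).

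The receptor for interleukin 10 combines *Il10ra*, which binds the cytokine, with *Il10rb*, a chain shared with receptors of related cytokines. *Il10ra* had the highest level of all members, with 545, 660 and 630 CPM in NI. At 72 h it had 331, 373 and 377 CPM after HS and 323, 325 and 437 CPM after FT, all below NI. At HS 1 week it had 600 and 512 CPM and at HS 2 weeks 493, 532 and 648 CPM, with libraries inside and below the NI range. The libraries of FT 2 weeks, at 467, 485 and 493 CPM, were all below NI. In limma the 72 h change was -0.76 after HS (SE 0.22, adjusted p = 0.0143) and -0.77 after FT (SE 0.22, 0.0147), which is 1.69-fold and 1.70-fold lower and so not DE. The adjusted p in limma passed 0.05 for HS without NI replicate 2 (0.0606) or HS 72 h replicate 1 (0.0592), and for FT without NI replicate 2 or 3 or FT 72 h replicate 1 or 2 (0.0516 to 0.0631). At 1 and 2 weeks it was -0.14 and -0.14 after HS and -0.36 and -0.34 after FT, with limma adjusted p of at least 0.440. With 1 total per library the 72 h change was -1.27 (limma adjusted p = 4.55e-05) after HS and -1.24 (5.90e-05) after FT, and -1.44 and -1.38 with quantile normalization, all DE. FT 1 week had 301 CPM in replicate 1 and 644 and 551 CPM in the others, and the change there was -0.03 without replicate 1.

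*Il10rb* was level by comparison. It ranged from 140 to 282 CPM over all libraries and its changes from NI were 0.14 to 0.40, none past the test with all libraries (limma adjusted p of at least 0.324). Without FT 1 week replicate 1 the FT 1 week change was 0.58 with an adjusted p of 0.0346 in limma, under 2-fold. These small positive values turned negative at 72 h under 1 total per library (-0.36 and -0.27), so no direction is given. The exons of *Il10rb* overlap *Gm21970*, a predicted gene on the same strand that is not in the table.

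*Il17ra*, the shared chain of the interleukin 17 receptors, was measured at 64.8, 68.6 and 72.1 CPM in NI. Its changes were negative throughout, at -0.41, -0.43 and -0.36 after HS and -0.19, -0.80 and -0.20 after FT. None was DE, and the nearest was FT 1 week (SE 0.25, limma adjusted p = 0.0529). Without replicate 1, which had 60.8 CPM against 24.9 and 39.1 CPM, that change was -1.12 (limma adjusted p = 0.00232), which is DE, as it also was with 1 total per library (-1.15).

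**Figure D3:**
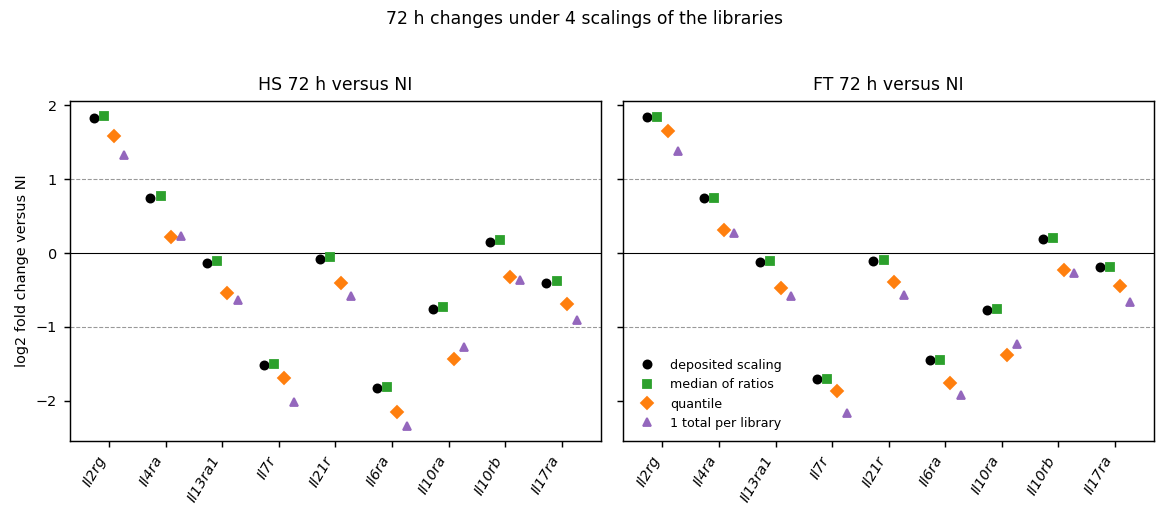
The log2 fold change against NI at 72 h (vertical axis) is plotted for each receptor gene (horizontal axis) under 4 scalings of the libraries, with HS on the left and FT on the right. Dashed lines mark 2-fold. *Il2rg* stays above and *Il7r* and *Il6ra* below the 2-fold lines under all 4, while *Il10ra* crosses the lower line under quantile scaling and 1 total, and *Il10rb* changes sign.

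Members outside the NI range can be counted without a model. Libraries of 6 of the 9 genes did not overlap NI at HS 72 h, 5 at HS 1 week and 4 at HS 2 weeks, and the shares of all genes were 49.0%, 37.3% and 24.8%. After FT the counts were 5, 3 and 5 of 9, and the shares of all genes were 44.9%, 21.5% and 30.7%. The shares of members were higher than those of all genes, but among 9 genes 1 gene is 11.1% of the list. The comparisons share the NI libraries, and the members were chosen with earlier results of these data known. No result about the members is therefore drawn from these counts.

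The severities did not separate for these genes. No member was DE between FT and HS at 72 h, 1 week or 2 weeks, by limma, by edgeR's quasi-likelihood or likelihood ratio test or by DESeq2, and none had an unadjusted p under 0.05 in limma. The share of all genes called was 0.00% at each time, and 505, 724 and 438 genes had an unadjusted p under 0.05. For *Il2rg* the FT minus HS difference was 0.01 at 72 h (95% interval -0.57 to 0.59) and 0.07 at 2 weeks (-0.51 to 0.65), on the log2 scale. *Il7r* was lower after FT at all 3 times, by -0.19, -0.35 and -0.40. The 95% interval of the last was -0.85 to 0.06. *Il6ra* was higher after FT, by 0.38, 0.28 and 0.22, and the interval at 72 h was -0.14 to 0.91. Without FT 1 week replicate 1 the 1 week difference was -0.11 for *Il6ra*, 0.62 for *Il2rg* and -0.18 for *Il7r*. At 2 weeks the FT libraries of 2 members, *Il7r* and *Il10ra*, lay wholly below those of HS (8.15% of all genes did not overlap). At 72 h and 1 week 0 members did so, where 7.54% and 15.0% of all genes did.

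Between times, with HS and FT averaged, 0 of the 9 members were DE at 1 week against 72 h (4.49% of all genes), at 2 weeks against 72 h (4.31%) or at 2 weeks against 1 week (0.113%), by limma, both edgeR tests and DESeq2. The unadjusted p in limma was under 0.05 for 4, 4 and 1 of them. Without the fold limit 2, 3 and 0 passed, where 21.3%, 21.4% and 0.137% of all genes did. *Il2rg* rose further from 72 h to 2 weeks, by 0.95 (SE 0.20, limma adjusted p = 0.00159), just under 2-fold, and all 6 libraries at 2 weeks were above all 6 at 72 h. The libraries of 3 members stood apart in this way at 2 weeks against 72 h (11.0% of all genes), and 0 at 1 week against 72 h (9.77%) or 2 weeks against 1 week (0.863%). *Il6ra* recovered part of its fall, by 0.56 at 1 week (SE 0.19, limma adjusted p = 0.0392) and 0.77 at 2 weeks (SE 0.18, 0.00407). *Il10ra* rose by 0.51 (SE 0.17, limma adjusted p = 0.0323) and 0.52 (SE 0.16, 0.0207). Without FT 1 week replicate 1, the 1 week difference from 72 h was 0.71 for *Il2rg* (limma adjusted p = 0.00332, against 0.48 and 0.101 with it), 0.68 for *Il10ra* (0.000527) and -0.48 for *Il17ra* (0.0408, against -0.32 and 0.222). At 1 week the adjusted p of *Il6ra* in limma was above 0.05 without HS 72 h replicate 1 or 2, FT 72 h replicate 1 or 2, either HS 1 week library (0.0541 to 0.127) or FT 1 week replicate 1 (0.37, 0.0778), and with only the groups compared in the fit (0.0862). That of *Il10ra* was above 0.05 without HS 72 h replicate 1, FT 72 h replicate 1 or 2, either HS 1 week library or FT 1 week replicate 2 or 3 (0.0581 to 0.119), and with only the groups compared (0.0921). At 2 weeks it was 0.0510 to 0.0565 for *Il10ra* without HS 72 h replicate 1, FT 72 h replicate 1 or HS 2 weeks replicate 3. For both genes the 6 libraries at 2 weeks lay above the 6 at 72 h. *Il7r* differed by -0.06 and 0.03 (limma adjusted p of 0.806 and 0.914), and the interval at 2 weeks was -0.29 to 0.35. *Il4ra* moved down by 0.38 and 0.39, which passed no adjusted test (0.101 and 0.0741 in limma). From 1 week to 2 weeks *Il2rg* differed by 0.47 (limma adjusted p = 0.668).

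Proliferation genes were higher than in NI at 72 h, when *Il6ra* and *Il10ra* were lower. All 8 listed genes were DE higher at 72 h after both injuries, from a summed 44.8 to 51.2 CPM in NI to 681 to 1129 CPM. At 1 and 2 weeks they summed to 59.4 to 99.6 CPM, above every NI library. Of the 8, 3 were DE higher at HS 2 weeks and 1 in each other group of 1 or 2 weeks. Markers of border macrophages (7 genes) summed to 203 to 218 CPM in NI. At 72 h they summed to 191 to 235 CPM after HS and 219 to 354 CPM after FT, and at 2 weeks to 52.5 to 83.8 CPM. Markers of neutrophils, which express *Il6ra*, summed to 49.0 to 122 CPM in NI and 20.7 to 63.3 CPM at 72 h. At 2 weeks these neutrophil sums were 42.9 to 124 CPM after HS and 14.6 to 290 CPM after FT. The part of proliferation, border macrophages or neutrophils in the receptor changes was not tested.

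Levels were compared between genes per kilobase of merged exons. In NI, *Il10ra* was highest at 175 CPM per kb, above *Il10rb* at 45.3, and no library of the 2 genes overlapped. *Il10rb*, *Il13ra1* (33.1), *Il4ra* (31.8) and *Il21r* (25.7) followed, and each of them overlapped its neighbour in this order. Below these stood *Il6ra* at 15.6, *Il2rg* at 10.01, *Il7r* at 8.79 and *Il17ra* at 7.91 CPM per kb, each separate from the next. The choice of length mattered lower down the order. By coding length *Il6ra*, which has long untranslated exons, ranked 3 in NI and *Il2rg* ranked 9.

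After injury *Il2rg* climbed this order. At 72 h it ranked 4 after both injuries, at 36.9 and 37.4 CPM per kb. At 2 weeks it ranked 2, at 68.7 CPM per kb after HS, clear of *Il10rb* at 51.4, and at 72.9 after FT, where it overlapped *Il10rb* at 60.4. By coding length it ranked 3 at 2 weeks. *Il7r* was lowest in all 6 injured groups, at 2.39 to 3.305 CPM per kb.

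**Figure D4:**
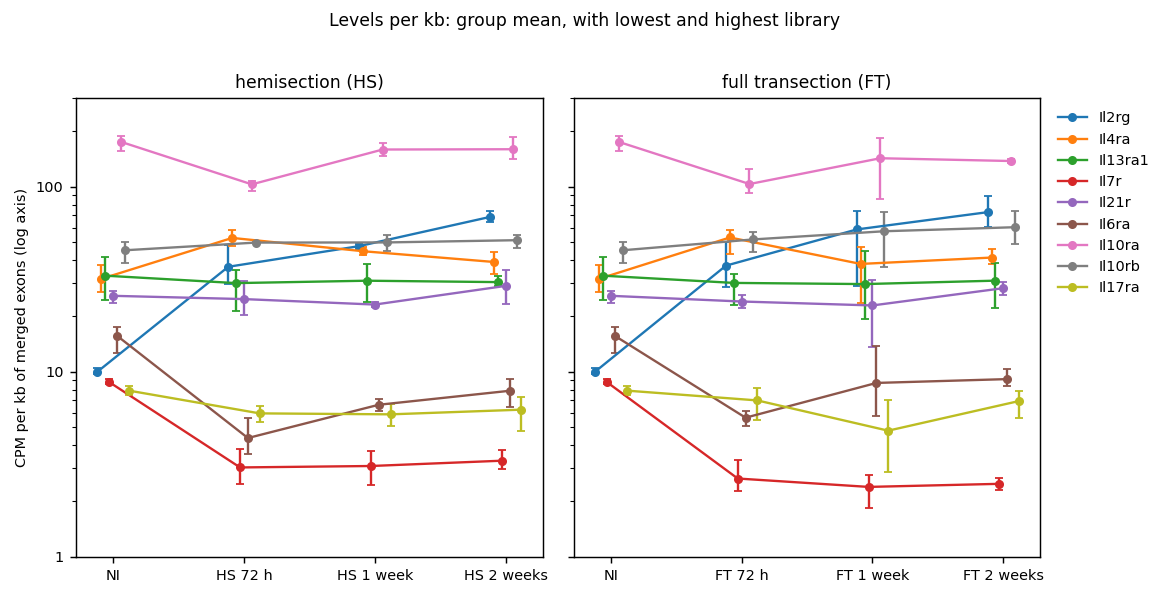
The level of each receptor gene in CPM per kb of merged exons (vertical log axis) is plotted by group (horizontal axis), with NI and HS on the left and NI and FT on the right. Points are group means and bars run from the lowest to the highest library. *Il2rg* goes from 10.01 to 68.7 and 72.9 CPM per kb, and *Il7r* drops to the bottom of the order.

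Ratios within a library do not depend on its scaling. The ratio of *Il2rg* to *Il7r* per kb was 1.07 to 1.22 in NI by merged exons but 0.682 to 0.778 by coding length, so which of these chains was higher there depends on the length used. By merged exons it was 10.5 to 13.3 at HS 72 h and 8.66 to 22.0 at FT 72 h, and 19.6 to 22.9 at HS 2 weeks and 24.3 to 33.6 at FT 2 weeks. The ratio of *Il2rg* to *Il4ra* was 0.281 to 0.359 in NI, 0.585 to 0.853 at 72 h and 1.55 to 2.18 at 2 weeks over both injuries, with no overlap between these times. Against *Il21r* it was 0.372 to 0.414 in NI and 1.93 to 3.44 at 2 weeks. Thus the common chain was below the specific chains *Il4ra* and *Il21r* in NI and above both at 2 weeks. By coding length the *Il2rg* mean was 21.6 CPM per kb in NI against 78.0 for *Il4ra*, and 148 against 96.2 at HS 2 weeks, in the same order.

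Within the interleukin 4 and 13 pair, *Il4ra* to *Il13ra1* was 0.898 to 1.11 in NI and 1.41 to 2.77 at HS 72 h and 1.69 to 1.90 at FT 72 h. It was also above NI at HS 1 week (1.23 to 1.78), HS 2 weeks (1.14 to 1.52) and FT 2 weeks (1.20 to 1.73). At FT 1 week it was 0.984 to 1.85 and overlapped NI. For interleukin 10, *Il10ra* to *Il10rb* was 3.08 to 4.66 in NI, 1.86 to 2.18 at HS 72 h and 1.62 to 2.30 at FT 72 h, all above 1. After FT this ratio was below NI at 1 week (2.33 to 2.52) and 2 weeks (1.80 to 2.87) too. After HS it overlapped NI at 1 week (3.11 to 3.26) and 2 weeks (2.66 to 3.39). By coding length it was 1.89 to 2.86 in NI, 1.15 to 1.34 at HS 72 h and 0.994 to 1.42 at FT 72 h. The ratio of *Il6ra* to *Il6st* was 1.02 to 1.85 in NI and 0.326 to 0.745 at 72 h. At 2 weeks it was 0.567 to 0.980 after HS and 0.534 to 0.966 after FT, still below NI.

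**Figure D5:**
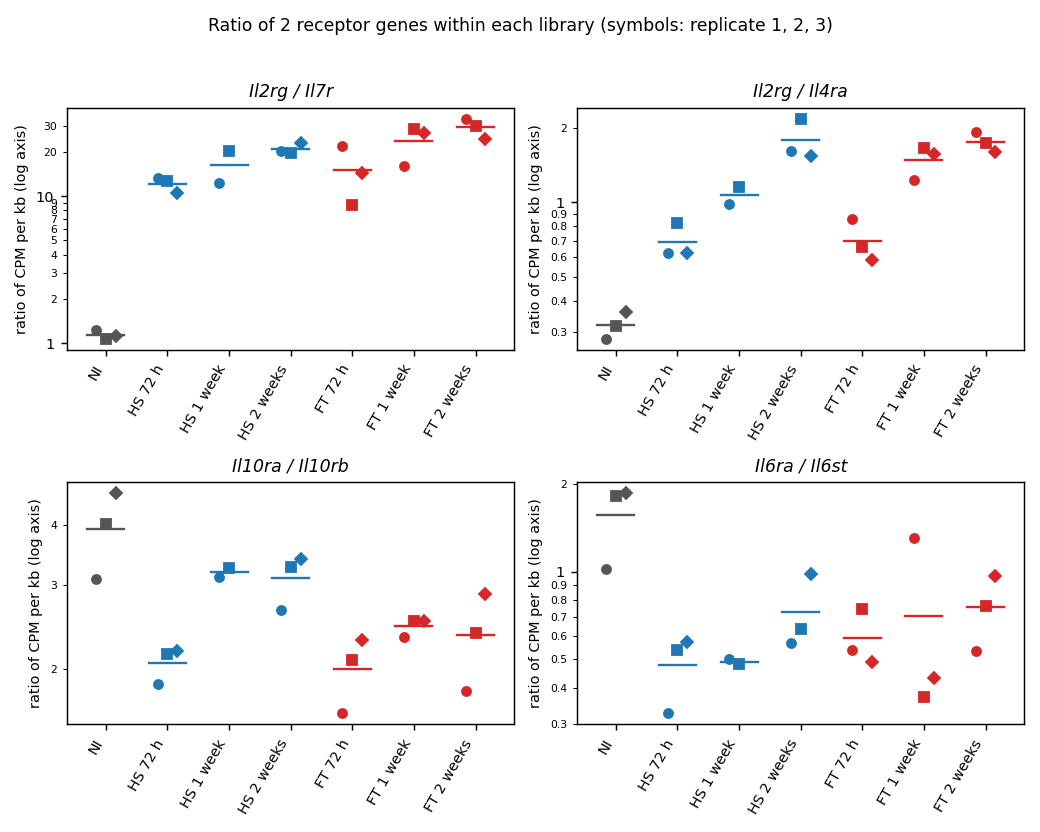
Each panel plots the ratio of the levels per kb of 2 receptor genes (vertical log axis) in each library, by group (horizontal axis). A symbol is a library and a bar is the group mean. The ratio of *Il2rg* to *Il7r* goes from about 1 in NI to between 8.66 and 33.6 after injury. That of *Il10ra* to *Il10rb* is lower than in NI at 72 h after both injuries and at each later time after FT.

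The rest of the pathway was read from lists of genes. Of 27 other interleukin receptor subunits 26 were in the table, and at most 3 were DE in any comparison with NI. *Il27ra*, the specific chain for interleukin 27, rose in 5 of the 6 comparisons. It went from 3.25 ± 0.900 CPM (SD, n = 3) in NI to 7.24 CPM at HS 72 h and 10.3 CPM at HS 2 weeks, which is 1.06 (limma adjusted p = 0.0154) and 1.53 (0.00397) on the log2 scale. At FT 72 h it had 4.62 CPM and was not DE. *Lifr*, the receptor chain of leukemia inhibitory factor, fell from 126 to 62.9 CPM at HS 2 weeks (-1.01, limma adjusted p = 0.0136) and 62.3 CPM at FT 2 weeks (-1.01, 0.00866). *Il3ra*, a chain of the interleukin 3 receptor, was DE at FT 2 weeks alone, from 1.16 to 5.23 CPM (1.82, limma adjusted p = 0.0137). Median changes over the 26 genes were -0.20 to 0.23.

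Of 17 listed cytokines 8 were in the table (*Il6*, *Il7*, *Il10*, *Il15*, *Il17f*, *Il21*, *Il34* and *Tslp*). The list of 17 also held *Il19*, *Il20*, *Il24* and *Il34*, whose receptors are other proteins, so not every entry is a ligand of the members. The summed level of the 8 was 32.8 to 39.7 CPM in NI and 19.1 to 34.6 CPM after injury. *Tslp*, thymic stromal lymphopoietin, which binds a receptor that contains the *Il7r* chain, was DE lower in 4 comparisons. It fell from 2.12 CPM in NI to 0.807 CPM at HS 72 h (-1.01, limma adjusted p = 0.0118) and 0.284 CPM at FT 2 weeks (-1.76, 0.000279), the latter from 2 to 5 reads per library. *Il6* fell at FT 72 h, from 10.9 to 3.97 CPM (-1.35, limma adjusted p = 0.0361), and had 5.53 CPM at HS 72 h (-1.02, 0.103). *Il7*, the ligand of *Il7r*, and *Il15* were not DE in any comparison with NI.

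Among the JAK kinases and STAT factors, *Stat2* rose at 1 week, by 1.05 after HS (limma adjusted p = 0.00507) and 1.11 after FT (0.000543). No DE call was made for *Jak3*, which binds the common gamma chain, for *Jak1*, for *Stat3*, which acts downstream of the interleukin 6 and 10 receptors, or for *Stat6*, which acts downstream of *Il4ra*. Of 8 SOCS feedback inhibitors, *Socs1* was DE lower at HS 72 h (-1.19, limma adjusted p = 0.0150), from 1.18 CPM to 2 to 4 reads per library, and *Socs2* was DE higher at FT 2 weeks (1.22, 0.0379). None of the 8 IL-17 receptor adaptors was DE in limma, and at most 1 had an unadjusted p under 0.05 in a comparison with NI.

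Genes known to respond to interleukin 4 or 13 did not move one way. Of 14 listed 12 were in the table. *Arg1*, arginase 1, rose at 72 h by 4.06 after HS and 4.13 after FT (limma adjusted p of 4.06e-05 and 3.71e-05), and *Chi3l3* by 2.49 and 3.35 (0.0216 and 0.00323). *Ccl22*, a chemokine, rose at HS 1 week (1.83, limma adjusted p = 0.00332), HS 2 weeks (1.54) and FT 2 weeks (1.61). *Mrc1*, the mannose receptor, was DE lower at HS 2 weeks (-1.42, limma adjusted p = 6.64e-05) and at all 3 FT times (-1.05, -1.01 and -1.58), and *Egr2* at FT 1 week (-2.13, 0.0165). *Arg1* and *Chi3l3* are also made by infiltrating macrophages, whose summed markers were higher at 72 h. *Mrc1* is also 1 of the 7 border macrophage markers. Of these 7, 6 were DE lower at 2 weeks after each injury, and 1 was DE higher at FT 2 weeks. The part of these cells in the changes was not tested. Of the 4 genes for shedding of receptors from the surface, *Rhbdf1* was DE lower at 72 h after both injuries (-1.03 and -1.22, limma adjusted p of 0.0292 and 0.0120) and *Rhbdf2* higher at FT 2 weeks (1.12, 0.00275), while *Adam10* and *Adam17* were not DE.

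The genes most like each member were found by Pearson's r of log2 levels over the 20 libraries, among 9871 genes with a mean of at least 5 CPM. These values describe the libraries, which share the NI and injury difference, the time and the depth of each library. For *Il2rg* they were *Ctse* (r = 0.975), *Lpl* (0.966) and *Dpp7* (0.959), and *Lpl* went from 67.8 CPM in NI to 1117 CPM at HS 2 weeks. For *Il7r* they were *Upk1b* (0.888), *Cep97* (0.883) and *Lrba* (0.871), and *Lrba* fell from 91.8 CPM in NI to 27.7 CPM at HS 72 h. *Il6ra* was most like *Sipa1* (0.964), *Trim8* (0.947) and *Znrf1* (0.944), and *Sipa1* went from 132 CPM in NI to 49.3 CPM at HS 72 h and 76.3 CPM at HS 2 weeks. *Il10ra* was most like *Rrnad1* (0.923), *Zcchc2* (0.907) and *Zfp866* (0.890), and *Il4ra* most like *Scly* (0.937), *Rab7* (0.937) and *D2Wsu81e* (0.921). For the members that differed little between groups the nearest genes were *D5Ertd579e* (0.918), *Lman1* (0.914) and *Tifa* (0.906) for *Il13ra1*, and *Ptpn6* (0.914), *Srpr* (0.910) and *Slc37a2* (0.896) for *Il10rb*. *Il21r*, with *Cnppd1* (0.828), *Dph2* (0.828) and *F11r* (0.813), and *Il17ra*, with *Trim47* (0.823), *Dos* (0.792) and *Mettl14* (0.767), had the least similar neighbours. Among the members themselves the closest relations were negative, at -0.83 between *Il4ra* and *Il6ra* and -0.75 between *Il2rg* and *Il7r*.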

How the data were processed

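Sorted microglia of 7 groups were sequenced as 20 libraries, and their groups were taken from the GEO labels. Libraries were made with a kit for low RNA input that does not mark strand, so reads of a gene and of its antisense partner cannot be told apart. Per the study's methods and the submitters' processing notes, the authors removed adapters, mapped reads with TopHat2 2.0.9 (mm10, GRCm38), counted them with HTSeq 0.5.4p3, kept genes with 10 counts in at least 2 replicates and normalized with edgeR 3.3.6. The deposited signal has no stated unit. Each column consists of whole multiples of 1 step (336162 of 336200 values within 0.001 of a whole read), so the values are CPM and whole reads were recovered.

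With 0.5 CPM added, log2 values were fitted with limma 3.58.1 (R 4.3.3, intensity trend, 1 mean per group, all 20 libraries). Fold changes are on that scale and understate the change of low genes. DE genes changed at least 2-fold with an adjusted p (Benjamini-Hochberg, 16810 genes) under 0.05. No low-value filter was added to the authors' own, and all 9 members passed. Lengths and positions came from GENCODE vM21, and promoters from RefSeq (GRCm38.p6). Alternatives were 0.1 or 1 CPM added, a filter of 1 CPM in 2 libraries, only the groups compared, 3 other scalings, no fold limit, a replicate block, edgeR 4.0.16 and DESeq2 1.42.0 on the recovered reads, and each library left out. The fit was tested on simulated data: for HS 72 h versus NI it called 24 of 67 genes changed 2-fold, 63 of 67 changed 3-fold, 62 of 66 changed 4-fold and 6 of 16610 unchanged genes.

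The members and lists were chosen with earlier results of these data known. All members are named in every comparison. From each pathway list up to 4 DE genes with the largest change and a mean of at least 1 CPM in a group were named against NI, and for likeness the 3 genes with the highest r. Other genes are named where a result turns on them. Some genes of the lists are not reported here.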

Additional observations from a re-analysis of the deposited data

Results flagged for a closer look

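Groups held 2 or 3 libraries, too few for the test of single outlying values within a group. The effect of injury against NI differed between times by a direct test (limma, Benjamini-Hochberg adjusted p over 16810 genes, HS and FT averaged) for 3 members, with all libraries. *Il2rg* was 0.95 higher on the log2 scale at 2 weeks than at 72 h (adjusted p = 0.00159 in limma), with 6 of 6 libraries above all of 72 h. *Il6ra* was 0.56 higher at 1 week than at 72 h (limma adjusted p = 0.0392) and 0.77 higher at 2 weeks (0.00407). *Il10ra* was 0.51 higher at 1 week (limma adjusted p = 0.0323) and 0.52 higher at 2 weeks (0.0207). The 1 week means of *Il6ra* and *Il10ra* include FT 1 week replicate 1, which was above its group for the former and below it for the latter. Without it they were 0.37 (limma adjusted p = 0.0778) for *Il6ra* and 0.68 (0.000527) for *Il10ra*, and differences of *Il2rg* (0.71, 0.00332) and *Il17ra* (-0.48, 0.0408) at 1 week passed too. None of the 5 differences reached 2-fold, and with HS alone or FT alone they were not tested.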

How the results depend on the processing

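All 15 DE calls of members kept their direction and their call under every alternative that kept all libraries, and with 1 library left out 82 of 87 refits kept them. The other 5 were in HS 1 week versus NI, where leaving out a library removes up to 1 of 2: *Il7r* without HS replicate 2 (-1.21, adjusted p = 0.0543 in limma) and *Il6ra* without NI replicate 2 (-1.16, 0.0829), NI replicate 3 (-1.13, 0.0787), HS replicate 1 (-1.33, 0.0995) or HS replicate 2 (-1.11, 0.231). A lone HS library was assumed to vary like those of the other groups. The number of DE members then was 1 to 3 in HS 1 week versus NI (1 without HS 1 week replicate 2), 2 to 3 in HS 2 weeks versus NI (3 without NI replicate 1 or HS 2 weeks replicate 3), 2 to 4 in FT 1 week versus NI (4 without FT 1 week replicate 1) and 0 to 1 in 2 weeks versus 72 h (1 without HS 72 h replicate 2, FT 72 h replicate 1 or FT 2 weeks replicate 3, each time *Il2rg*). Without the fold limit 5 members passed in HS 72 h versus NI, 5 in FT 72 h versus NI, 2 in 1 week versus 72 h and 3 in 2 weeks versus 72 h. With 1 total per library 4 were DE in FT 1 week versus NI and 1 in 2 weeks versus 72 h, and with quantile normalization 3 and 1. Under both scalings 4 were DE in each 72 h comparison with NI (*Il10ra* added) and 3 in each at 2 weeks (*Il6ra* added). The cause was not tested. Over all genes, the share of DE genes that were higher at HS 72 h was 67.8% as deposited and 16.2% with 1 total per library.

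Changes that turned sign were all of members that were not DE, and they are given on the log2 scale. With every library set to 1 total the sign turned for HS 72 h versus NI (*Il10rb* -0.36), HS 1 week versus NI (*Il10rb* -0.068), HS 2 weeks versus NI (*Il4ra* -0.018, *Il21r* -0.16, *Il10rb* -0.14), FT 72 h versus NI (*Il10rb* -0.27), FT 1 week versus NI (*Il4ra* -0.13, *Il10rb* -0.054), FT 2 weeks versus NI (*Il4ra* -0.00850, *Il21r* -0.26), FT versus HS at 72 h (*Il21r* 0.015, *Il10ra* 0.032), FT versus HS at 2 weeks (*Il2rg* -0.00377), 1 week versus 72 h (*Il13ra1* 0.19, *Il7r* 0.14, *Il21r* 0.099), 2 weeks versus 1 week (*Il13ra1* -0.020, *Il10ra* -0.072, *Il10rb* -0.00573). Quantile normalization turned the sign for HS 72 h versus NI (*Il10rb* -0.32), HS 1 week versus NI (*Il10rb* -0.020), HS 2 weeks versus NI (*Il21r* -0.00899, *Il10rb* -0.049), FT 72 h versus NI (*Il10rb* -0.22), FT 1 week versus NI (*Il4ra* -0.041), FT 2 weeks versus NI (*Il21r* -0.067), FT versus HS at 72 h (*Il21r* 0.010, *Il10ra* 0.055), 1 week versus 72 h (*Il13ra1* 0.19, *Il7r* 0.00532, *Il21r* 0.067), 2 weeks versus 1 week (*Il10ra* -0.076). Median of ratios scaling did so for FT versus HS at 72 h (*Il2rg* -0.00696, *Il4ra* -0.019, *Il13ra1* -0.00311), 2 weeks versus 72 h (*Il17ra* -0.00278), 2 weeks versus 1 week (*Il10ra* -0.00329). The quasi-likelihood test of edgeR did so for FT versus HS at 72 h (*Il10ra* 0.00680), FT versus HS at 2 weeks (*Il13ra1* 0.025), 1 week versus 72 h (*Il13ra1* 0.00882), 2 weeks versus 1 week (*Il10ra* -0.022). Its likelihood ratio test did so for FT versus HS at 72 h (*Il10ra* 0.00701), FT versus HS at 2 weeks (*Il13ra1* 0.026), 1 week versus 72 h (*Il13ra1* 0.00955), 2 weeks versus 1 week (*Il10ra* -0.022). DESeq2 did so for FT versus HS at 72 h (*Il2rg* -0.00457, *Il4ra* -0.016, *Il13ra1* -0.014), FT versus HS at 2 weeks (*Il13ra1* 0.023), 1 week versus 72 h (*Il13ra1* 0.00115), 2 weeks versus 1 week (*Il10ra* -0.038).

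With 1 library left out the sign also turned for some small changes, whose lowest and highest values were HS 72 h versus NI (*Il13ra1* -0.34 to 0.10, *Il21r* -0.25 to 0.051), HS 1 week versus NI (*Il13ra1* -0.43 to 0.24, *Il10rb* -0.00566 to 0.29), HS 2 weeks versus NI (*Il13ra1* -0.28 to 0.10), FT 72 h versus NI (*Il13ra1* -0.32 to 0.068), FT 1 week versus NI (*Il13ra1* -0.54 to 0.063, *Il21r* -0.52 to 0.078), FT 2 weeks versus NI (*Il13ra1* -0.29 to 0.14), FT versus HS at 72 h (*Il2rg* -0.22 to 0.22, *Il4ra* -0.077 to 0.14, *Il13ra1* -0.22 to 0.20, *Il21r* -0.15 to 0.15, *Il10ra* -0.15 to 0.068, *Il10rb* -0.024 to 0.16), FT versus HS at 1 week (*Il2rg* -0.044 to 0.62, *Il4ra* -0.47 to 0.024, *Il13ra1* -0.45 to 0.22, *Il21r* -0.36 to 0.23, *Il6ra* -0.11 to 0.52, *Il10ra* -0.44 to 0.11, *Il10rb* -0.050 to 0.44), FT versus HS at 2 weeks (*Il2rg* -0.084 to 0.19, *Il4ra* -0.021 to 0.17, *Il13ra1* -0.19 to 0.22, *Il21r* -0.18 to 0.13, *Il17ra* -0.015 to 0.31), 1 week versus 72 h (*Il13ra1* -0.19 to 0.14, *Il7r* -0.21 to 0.084, *Il21r* -0.24 to 0.052, *Il10rb* -0.054 to 0.19), 2 weeks versus 72 h (*Il13ra1* -0.079 to 0.15, *Il7r* -0.037 to 0.12, *Il17ra* -0.060 to 0.11), 2 weeks versus 1 week (*Il4ra* -0.17 to 0.077, *Il13ra1* -0.10 to 0.23, *Il7r* -0.054 to 0.24, *Il10ra* -0.15 to 0.12, *Il10rb* -0.068 to 0.18).

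Replicate numbers did not pair the libraries: over 57 pairs with the same number the correlation of deviations from the group means had a median of -0.0017 (from -0.39 to 0.38, 20 over 0.1), against -0.0066 over 114 pairs with different numbers. With the replicate block the number of DE members was the same in every comparison (3, 3, 2, 3, 2 and 2 against NI and 0 elsewhere), and the sign turned for *Il10ra* in 2 weeks versus 1 week (-0.026). *Il7r*, the member with the fewest reads, had at least 53 in every library.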
